A study of Homo sapiens with 8 samples.

Results

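The translation initiation factors examined here are the protein-coding genes whose symbol begins with EIF, apart from the eIF2 kinases (EIF2AK symbols). A TPM (a transcript level corrected for length and scaled to a fixed total per library) of at least 1 in at least 4 of 8 libraries was required. The symbol rule found 52 genes, and 48 of them were kept among 11725 genes tested. The 4 others did not reach that level, among them EIF2S3B, EIF4E1B and EIF4E3, which were at most at 0.313 TPM in any library. All libraries came from PANC-1, an established human line derived from a pancreatic ductal carcinoma, which is a model of a single tumour's cells. The EB group was exposed for 24 h to 10 µM eupalinolide B (EB), a compound from the plant Eupatorium lindleyanum, and the control group to its vehicle DMSO, with 4 libraries each that the methods call biological replicates. The table heads its columns C or H, and H was taken to mean EB as the other group of the series, so every direction given rests on that reading. RNA sequencing was done to learn how gene expression in these cells differs after EB.

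Initiation brings a ribosome to the start codon of an mRNA. The eIF2 complex carries the initiator tRNA to the small subunit and is recharged with GTP by eIF2B, eIF1 and eIF5 control recognition of the start codon, and eIF3 holds the assembly together. The eIF4F complex (the cap binder eIF4E, the scaffold eIF4G and the RNA helicase eIF4A) recruits the mRNA. It is held back by the 4E-binding proteins, which the kinase mTOR switches off, and eIF2 is held back when a family of stress kinases phosphorylates its alpha subunit.

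Of the 48 factors, 14 were higher and 4 were lower with EB at an adjusted p under 0.05 (limma on log2(TPM + 1), Benjamini-Hochberg over all genes tested), and 30 were not called. These are 29.2% and 8.33% of the factors, against a background of 15.2% of all genes tested that were higher and 25.1% that were lower. The 4 EB libraries lay wholly above the 4 DMSO libraries for 17 factors, where the background was 16.6%, and wholly below for 3 factors, where it was 20.3%. The median log2 fold change was 0.19 over the factors and -0.11 over all genes tested. No factor passed an unadjusted limma p under 0.05 together with a log2 fold change beyond 1.5 in size. Of all genes, 0.537% passed these limits upward and 1.54% downward. The limits, called the study's thresholds below, take its p as unadjusted, which the paper does not state. The study lists more higher than lower genes, and the balance is opposite here, so its calls were not reproduced. At an unadjusted limma p under 0.05 alone, 17 factors were higher and 7 lower. That level was reached by 19.4% of all genes upward and 30.5% downward. The log2 fold changes of the factors ran from -1.34 for EIF4G3 to 1.44 for EIF4EBP1.

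**Figure D1:**
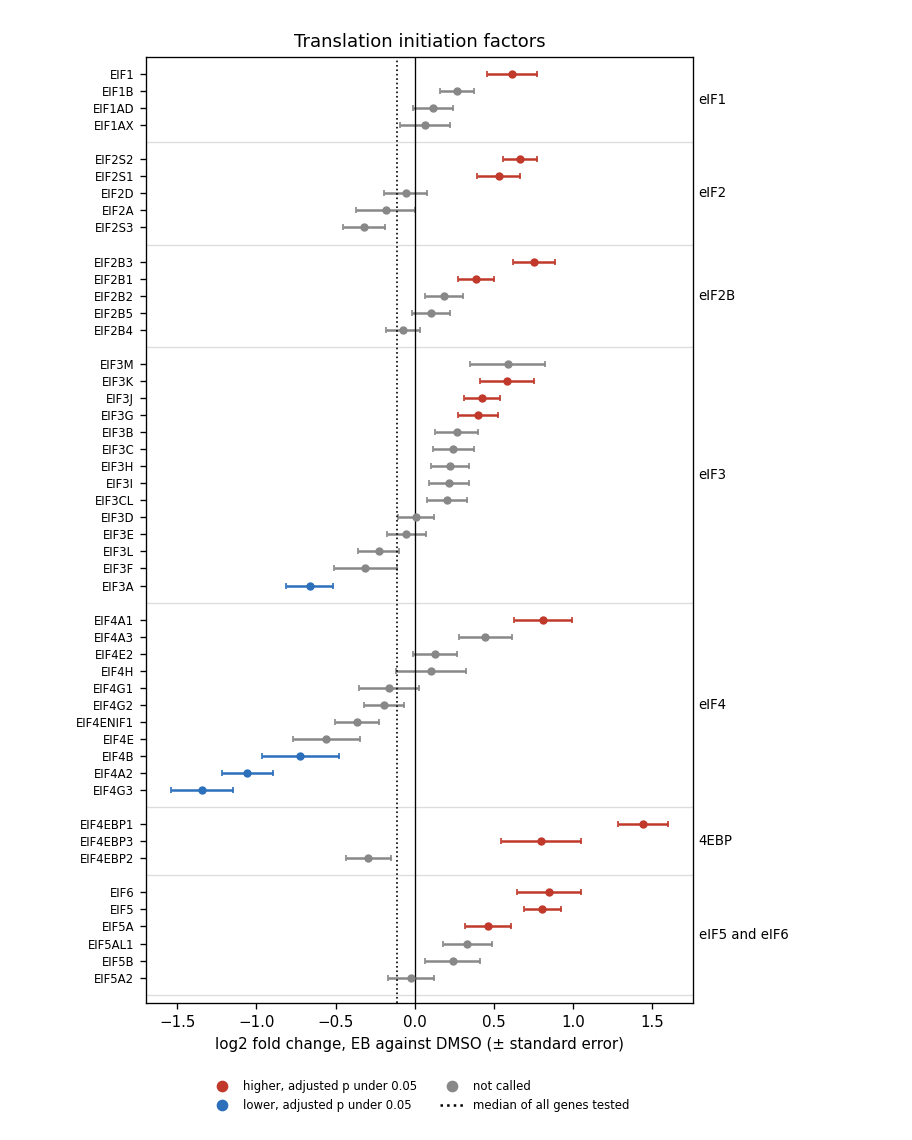
Log2 fold change of each of the 48 factors with EB against DMSO (points) with its standard error (bars), by complex, from limma on log2(TPM + 1). Red and blue points passed an adjusted p of 0.05, the dotted line is the median of all genes tested (-0.11), and EIF4EBP1 at 1.44 and EIF4G3 at -1.34 lie farthest apart.

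Mitochondrially encoded genes took 17.0% to 39.0% of the TPM in the DMSO libraries, with DMSO replicate 4 the highest, and 11.6% to 20.3% in the EB libraries. With those genes removed and the rest rescaled, 11 factors were higher and 10 lower, so that 52.4% of the called factors were higher, compared with 77.8% with the values as deposited. The background moved too, to 12.1% of all genes higher and 41.4% lower, against 22.9% and 20.8% of the factors. The median over all genes moved from -0.11 to -0.28 under that rescaling, and the factors' median stayed 0.30 above it, as with the values as deposited. That distance could hardly change, since all nuclear genes of a library were multiplied by the same factor. Leaving out DMSO replicate 4 gave 14 higher and 6 lower factors, and leaving out EB replicate 3 gave 9 and 3. In bulk RNA, fewer cells of a type and less RNA per cell cannot be told apart. The epithelial keratins KRT8, KRT18 and KRT19 were at 135 TPM or more in every library and KRT7 was at 0.297 TPM or less, while the leukocyte, endothelial, acinar and endocrine markers PTPRC, CD3E, PECAM1, PRSS1, CPA1 and INS were listed at 0 in all libraries. KRT8 was at 514 to 877 TPM with DMSO and at 1518 to 1897 TPM with EB, and the part of this difference in the factors' values was not tested.

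Of the 18 called factors, 10 kept their call under each of 17 refits with another normalization, filter, pseudocount or variance model or with a library left out. The 8 that were higher are EIF1, EIF2S1, EIF2S2, EIF2B3, EIF4A1, EIF4EBP1, EIF5 and EIF6, and the 2 that were lower are EIF4A2 and EIF4G3. They cover start codon recognition, eIF2 and its exchange factor, the helicase and scaffold of eIF4F, its inhibitor and the large ribosomal subunit. The sequence just upstream of the start site is shown for 4 of them, because the helicase paralogs EIF4A1 and EIF4A2 moved in opposite directions and because EIF5 and EIF2B3, both higher, each hold a match to a motif searched here. The 250 bases that precede a start site on the gene's own strand are given 5′ to 3′ from RefSeq on GRCh38.p14, in lower case with motif matches in capitals.
EIF4A1, chr17:7572575-7572824, plus strand: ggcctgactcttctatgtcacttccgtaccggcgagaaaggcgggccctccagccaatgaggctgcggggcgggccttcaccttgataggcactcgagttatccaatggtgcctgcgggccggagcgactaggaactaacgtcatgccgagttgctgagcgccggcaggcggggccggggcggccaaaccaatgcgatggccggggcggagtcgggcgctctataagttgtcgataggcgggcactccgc
EIF4A2, chr3:186783327-186783576, plus strand: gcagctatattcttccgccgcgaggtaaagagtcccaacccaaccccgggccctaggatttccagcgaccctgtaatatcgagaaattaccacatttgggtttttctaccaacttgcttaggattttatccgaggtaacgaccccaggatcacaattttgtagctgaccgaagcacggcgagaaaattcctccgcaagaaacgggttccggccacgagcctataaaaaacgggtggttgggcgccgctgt
EIF5, chr14:103333987-103334236, plus strand: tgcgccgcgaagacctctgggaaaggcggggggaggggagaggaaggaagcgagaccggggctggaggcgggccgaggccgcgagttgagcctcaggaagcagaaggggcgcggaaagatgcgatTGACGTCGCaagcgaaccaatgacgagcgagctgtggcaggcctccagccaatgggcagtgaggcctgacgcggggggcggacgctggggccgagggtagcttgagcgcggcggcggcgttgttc
EIF2B3, chr1:44986596-44986845, minus strand: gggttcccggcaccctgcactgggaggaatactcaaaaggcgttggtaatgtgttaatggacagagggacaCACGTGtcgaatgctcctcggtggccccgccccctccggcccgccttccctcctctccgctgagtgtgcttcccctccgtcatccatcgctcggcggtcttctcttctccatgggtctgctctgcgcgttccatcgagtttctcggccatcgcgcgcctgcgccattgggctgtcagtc
The EIF5 match TGACGTCGC starts 125 bases before the start site and belongs to the antioxidant response element core TGACNNNGC. The EIF2B3 match starts 179 bases before the start site and is the E-box CACGTG, which reads the same on either strand. No letters matched in the windows of EIF4A1 and EIF4A2. The antioxidant core also matched 228 bases before the other start site of EIF5 and 129 bases before a start site of EIF4G3, in windows not shown.

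Promoter windows of 300 bases (250 before to 50 after a start site) were at hand for 40 of the 48 factors, with 53 windows in all since a gene can have several starts. Both strands were searched. The amino acid response element core TGATGNAA was in 0 of the 53 windows and in 3.62% of 35116 promoters searched. The antioxidant core was in 13 of the 53 windows (24.5%) and in 13.4% of all promoters, and the E-box was in 11 windows (20.8%) and in 7.26% of all promoters. By call, the antioxidant core was in the windows of 5 of 11 factors called higher, 1 of 3 called lower and 5 of 26 not called. The E-box was found for 3 of 11, 1 of 3 and 7 of 26 in the same order. These counts are per factor and not per window. A factor with several windows, such as EIF5 and EIF5A among those called higher, has more chances to match. Matches to both motifs overlap in the windows of EIF4G1 and EIF5A2. These matches are descriptions of letters in a window. No window was at hand for EIF2S2, EIF3A, EIF3CL, EIF3E, EIF3G, EIF3H, EIF3L and EIF4EBP1.

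The alpha and beta subunits of eIF2 were higher with EB, and the gamma subunit was not called. EIF2S1 (chr14:67360328-67386516, GENCODE on hg38), the alpha subunit that the stress kinases phosphorylate, was at 36.0, 32.0, 32.2 and 31.4 TPM in DMSO replicates 1 to 4 and at 59.5, 46.3, 45.9 and 41.6 TPM in EB replicates 1 to 4. The groups did not overlap, and EB replicate 1 was the highest library. EIF2S1 was 1.44-fold higher (log2 fold change 0.53, SE 0.14, limma adjusted p = 0.0130). EIF2S2 (chr20:34088309-34112243), the beta subunit, was at 116, 116, 108 and 126 TPM with DMSO and at 175, 185, 195 and 187 TPM with EB, with a narrow spread in each group and a clear gap between them. It was 1.59-fold higher (log2 fold change 0.67, SE 0.11, limma adjusted p = 0.00178). EIF2S3, the gamma subunit that binds GTP and the tRNA, averaged 236 ± 28.0 TPM (SD, n = 4) with DMSO and 188 ± 16.5 TPM with EB, a log2 fold change of -0.32 (95% interval -0.62 to -0.03, limma adjusted p = 0.0780), and was not called. It was called lower with mitochondrial genes removed (-0.51, limma adjusted p = 0.00165), with quantile normalization (-0.53, limma adjusted p = 0.000816) and without DMSO replicate 4 (-0.41, limma adjusted p = 0.0108). It was also called lower with the replicate number as a block. The 2 other members of this group, EIF2A and EIF2D, deliver tRNA to the ribosome apart from eIF2, and their log2 fold changes of -0.18 and -0.06 were not called. With limma, 0 factors of the eIF2 group were called lower, where 25.1% of all genes were. At an unadjusted p under 0.05 the count was 1, where 30.5% of all genes were lower.

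Of the 5 subunits of eIF2B, the exchange factor that reloads eIF2 with GTP, 2 were higher and 0 lower, where 15.2% and 25.1% of all genes were. At an unadjusted limma p under 0.05 the counts were also 2 and 0, and the shares of all genes 19.4% and 30.5%. EIF2B3 (chr1:44850522-44986722), the gamma subunit and a partner of the catalytic epsilon subunit, was at 38.7, 34.6, 28.3 and 37.6 TPM with DMSO and at 56.1, 59.4, 64.3 and 56.5 TPM with EB. Every EB library lay above every DMSO library, by 1.69-fold on average (log2 fold change 0.76, SE 0.13, limma adjusted p = 0.00230). EIF2B1 (chr12:123620406-123633766), the alpha subunit, was at 43.4, 46.3, 40.9 and 38.1 TPM with DMSO and at 56.1, 58.4, 55.6 and 51.5 TPM with EB. These groups did not overlap either, with a log2 fold change of 0.39 (SE 0.12, limma adjusted p = 0.0237). The call of EIF2B1 was lost without DMSO replicate 3 or without EB replicate 1, 2 or 3, each time at a log2 fold change of 0.36 to 0.39 and a limma adjusted p of 0.0558 to 0.0646. With mitochondrial genes removed the value of EIF2B1 was 0.21 and was not called (limma adjusted p = 0.101). The catalytic subunit EIF2B5 averaged 62.3 ± 6.62 TPM (SD, n = 4) with DMSO and 66.6 ± 2.39 TPM with EB, a log2 fold change of 0.10 (95% interval -0.17 to 0.37), and was not called. With each library's trend with transcript length and GC removed, EIF2B4 was called lower (-0.26, limma adjusted p = 0.0448) and EIF2B2 higher (0.48, limma adjusted p = 0.00248).

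In the eIF1 group, 1 of 4 factors was higher and 0 were lower with limma, where 15.2% and 25.1% of all genes were. At an unadjusted p under 0.05 the counts were 2 and 0, and the shares of all genes 19.4% and 30.5%. EIF1 (chr17:41688885-41692668), which keeps the scanning ribosome from settling on a wrong start codon, was at 227, 193, 190 and 147 TPM with DMSO and at 316, 268, 316 and 254 TPM with EB. Its lowest EB library lay above its highest DMSO library, and it was 1.53-fold higher (log2 fold change 0.61, SE 0.16, limma adjusted p = 0.0125). Its paralog EIF1B was at 34.7, 35.8, 36.4 and 31.6 TPM with DMSO and at 41.6, 40.6, 40.5 and 44.6 TPM with EB. The groups did not overlap for EIF1B, but its log2 fold change of 0.27 was not called (95% interval 0.02 to 0.51, limma adjusted p = 0.0780) and its sign turned once each library's trend with transcript length and GC was taken out (-0.12). EIF1AX, the partner of EIF1 in scanning, averaged 60.4 ± 8.86 TPM (SD, n = 4) with DMSO and 63.3 ± 9.03 TPM with EB, and EIF1AD averaged 28.6 ± 2.83 and 31.1 ± 2.84 TPM. Neither was called.

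In the eIF5 and eIF6 group 3 of 6 factors were higher and 0 were lower with limma, where 15.2% and 25.1% of all genes were. At an unadjusted p under 0.05 the counts were the same, and the shares of all genes 19.4% and 30.5%. EIF5 (chr14:103333544-103345025), which triggers GTP hydrolysis by eIF2 at the start codon, was at 60.7, 64.5, 64.7 and 58.7 TPM with DMSO and at 118, 114, 110 and 96.8 TPM with EB. The DMSO libraries were close together and far below the lowest EB library. EIF5 was 1.75-fold higher (log2 fold change 0.81, SE 0.12, limma adjusted p = 0.000870). EIF6 (chr20:35278907-35284985), which binds the large ribosomal subunit and keeps it from joining early, was at 171, 160, 145 and 94.1 TPM with DMSO and at 298, 230, 278 and 207 TPM with EB. DMSO replicate 4 was the lowest library, and the groups did not overlap. EIF6 was 1.80-fold higher (log2 fold change 0.85, SE 0.20, limma adjusted p = 0.00975). Further coding genes annotated on the same strand overlap EIF5 and EIF6, so that their reads could be divided in counting.

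EIF5A, a carrier of the modified amino acid hypusine that helps ribosomes past difficult stretches, had the highest level of all 48 factors in both groups. It was at 617, 582, 622 and 429 TPM with DMSO and at 788, 777, 798 and 709 TPM with EB. The groups did not overlap and DMSO replicate 4 was again the lowest library. The log2 fold change was 0.46 (SE 0.15, limma adjusted p = 0.0294), and the call was lost without DMSO replicate 2 or without EB replicate 1, 2 or 3 (log2 fold change 0.44 to 0.48, limma adjusted p 0.0575 to 0.0755). With quantile normalization the value of EIF5A was 0.16 and was not called (limma adjusted p = 0.143). Its paralog EIF5A2 was near the bottom, at 5.87, 3.86, 4.66 and 3.60 TPM with DMSO and 4.14, 4.41, 4.18 and 4.69 TPM with EB. The groups overlapped for EIF5A2 (log2 fold change -0.02, 95% interval -0.35 to 0.31), and the sign turned without DMSO replicate 1 (0.09). It also turned with median-ratio scaling and with quantile normalization. With the length and GC trend removed EIF5A2 was called higher (0.35, limma adjusted p = 0.0432). EIF5AL1 averaged 3.13 ± 0.67 TPM (SD, n = 4) with DMSO and 4.19 ± 0.67 TPM with EB, and because it is nearly identical to EIF5A, reads can be shared between them. EIF5B, a GTPase that joins the ribosomal subunits, averaged 79.1 ± 14.5 and 93.6 ± 16.8 TPM and was not called.

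**Figure D2:**
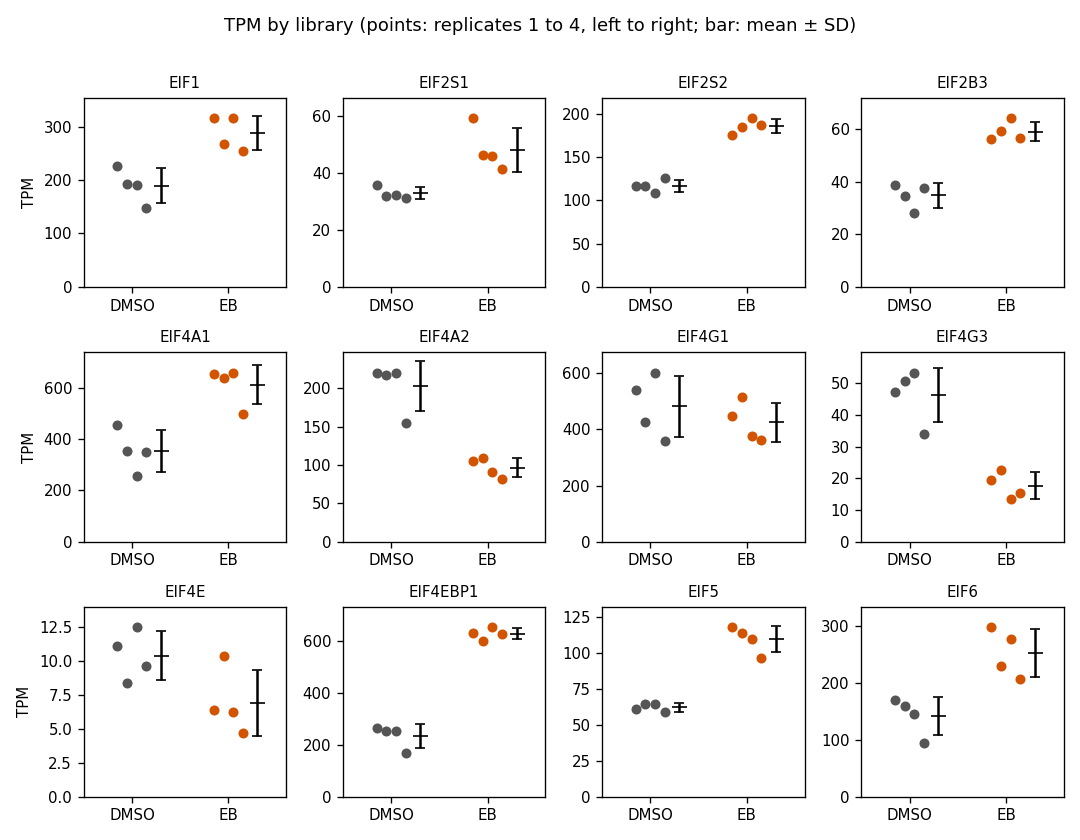
TPM of 12 factors in each library (points, replicates 1 to 4 from left to right) with the mean and SD (bars) for DMSO and EB, each panel with its own axis from 0. The points of the groups are apart for EIF1, EIF2S1, EIF2S2, EIF2B3, EIF4A1, EIF4A2, EIF4G3, EIF4EBP1, EIF5 and EIF6, whereas those for EIF4G1 and EIF4E overlap.

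Of the 14 eIF3 genes, 3 were higher with EB (21.4%, where 15.2% of all genes were) and 1 was lower (7.14%, where 25.1% were). EIF3A (chr10:119033670-119080817), the large subunit on which the complex is built, was at 130, 144, 144 and 115 TPM with DMSO and at 81.9, 105, 72.4 and 78.1 TPM with EB. Every EB library lay below every DMSO library, at 0.63-fold on average (log2 fold change -0.66, SE 0.15, limma adjusted p = 0.00678). With the length and GC trend removed the value was -0.21 and the call was lost (limma adjusted p = 0.0702). EIF3K (chr19:38619082-38636955), a small peripheral subunit, was at 378, 326, 305 and 237 TPM with DMSO and at 523, 419, 516 and 400 TPM with EB. The groups did not overlap, and the log2 fold change was 0.58 (SE 0.17, limma adjusted p = 0.0211). That of EIF3K was 0.21 and not called with the length and GC trend removed (limma adjusted p = 0.0641), and the call was also lost without DMSO replicate 3 or without EB replicate 1 or 3 (log2 fold change 0.52 to 0.58, limma adjusted p 0.0511 to 0.0634). EIF3J (chr15:44537125-44563029), a loosely bound subunit at the decoding site, was at 47.3, 50.4, 52.1 and 47.3 TPM with DMSO and at 60.7, 73.4, 64.4 and 67.5 TPM with EB. The libraries were apart in the same direction as for EIF3K, with a log2 fold change of 0.42 (SE 0.11, limma adjusted p = 0.0158) that fell to 0.24 with mitochondrial genes removed (limma adjusted p = 0.129).

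The third eIF3 gene called higher was EIF3G, which averaged 351 ± 42.3 TPM (SD, n = 4) with DMSO and 461 ± 24.0 TPM with EB, a log2 fold change of 0.40 (limma adjusted p = 0.0315). The call of EIF3G was lost in 7 of the 17 refits (limma adjusted p 0.0642 to 0.303), namely with the length and GC trend removed (0.12), quantile normalization (0.17) or mitochondrial genes removed (0.21), without DMSO replicate 2 (0.39) and without EB replicate 1 (0.38), 3 (0.38) or 4 (0.40). The 10 genes not called ran from a log2 fold change of -0.31 for EIF3F to 0.59 for EIF3M. EIF3M, with 103 ± 20.3 TPM (SD, n = 4) for DMSO and 159 ± 55.1 TPM for EB, had a wide spread since EB replicate 4 alone was at 238 TPM. It was called higher with the length and GC trend removed (0.96, limma adjusted p = 0.0221), with the replicate number as a block and without EB replicate 1. EIF3C and EIF3CL, near-identical genes between which reads can be split, averaged 352 ± 42.1 and 313 ± 33.7 TPM with DMSO and 415 ± 23.3 and 360 ± 22.7 TPM with EB. Neither was called with the values as deposited. Both, and EIF3B and EIF3H, were called higher with median-ratio scaling and with the length and GC trend removed. EIF3L was called lower with quantile normalization and with mitochondrial genes removed.

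In the eIF4 group 3 of 11 factors were lower with EB (27.3%, near the 25.1% of all genes). Only 1 was higher (9.09%, where 15.2% of all genes were). EIF4A1 (chr17:7572824-7579006), the main helicase that unwinds the mRNA in front of the ribosome, was at 455, 355, 256 and 351 TPM with DMSO and at 655, 640, 659 and 498 TPM with EB. The groups did not overlap, although DMSO replicate 3 and EB replicate 4 were low within theirs. EIF4A1 was 1.75-fold higher (log2 fold change 0.81, SE 0.18, limma adjusted p = 0.00739). It shares its position with the annotated readthrough gene SENP3-EIF4A1, so reads can be divided between them. EIF4A2 (chr3:186783205-186789897), its close paralog, was at 220, 218, 220 and 154 TPM with DMSO and at 105, 109, 90.6 and 81.8 TPM with EB. All EB libraries were below all DMSO libraries, at 0.48-fold on average (log2 fold change -1.06, SE 0.16, limma adjusted p = 0.00114). EIF4A3, the helicase of the exon junction complex, averaged 116 ± 20.5 TPM (SD, n = 4) with DMSO and 158 ± 22.2 TPM with EB, and its log2 fold change of 0.45 was not called (95% interval 0.07 to 0.82, limma adjusted p = 0.0594). EIF4A3 was called higher with the length and GC trend removed (0.46, limma adjusted p = 0.00561), with median-ratio scaling and with quantile normalization. The same held with a trend in eBayes, with the replicate number as a block and without EB replicate 4.

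Of the eIF4G scaffolds, EIF4G3 was lower and EIF4G1 and EIF4G2 were not called. EIF4G3 (chr1:20806292-21177285) was at 47.2, 50.8, 53.3 and 34.0 TPM with DMSO and at 19.4, 22.7, 13.4 and 15.4 TPM with EB. The lowest DMSO library was above the highest EB library, and the level with EB was 0.39-fold that with DMSO (log2 fold change -1.34, SE 0.20, limma adjusted p = 0.000935), the largest fall among the 48 factors. EIF4G1, the most abundant scaffold, was at 540, 425, 602 and 360 TPM with DMSO and at 448, 514, 378 and 363 TPM with EB. The groups overlapped over most of their range (log2 fold change -0.16, 95% interval -0.58 to 0.26), and the sign turned with the length and GC trend removed (0.20). EIF4G2, which lacks the eIF4E-binding part, was at 271, 279, 287 and 236 TPM with DMSO and at 245, 263, 223 and 208 TPM with EB. These groups overlapped as well (log2 fold change -0.19, 95% interval -0.48 to 0.09). EIF4G2 was called lower with quantile normalization (-0.41) or with mitochondrial genes removed (-0.38), and its sign turned with the length and GC trend removed (0.05).

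The cap-binding protein itself, EIF4E, was scarce as mRNA beside its partners, at 11.1, 8.36, 12.5 and 9.61 TPM with DMSO and at 6.36, 10.4, 6.21 and 4.71 TPM with EB. EB replicate 2 reached into the DMSO range and the other EB libraries were below it. The log2 fold change of -0.56 was not called (95% interval -1.03 to -0.09, limma adjusted p = 0.0585), but it was called lower with the length and GC trend removed (-0.57, limma adjusted p = 0.0333), with mitochondrial genes removed (-0.74, limma adjusted p = 0.0138) and without EB replicate 2 (-0.75, limma adjusted p = 0.0111). EIF4B, a cofactor of the helicase, was the third eIF4 factor called lower, with 149 ± 45.6 TPM (SD, n = 4) for DMSO and 87.8 ± 16.1 TPM for EB (log2 fold change -0.72, SE 0.24, limma adjusted p = 0.0375). Its groups overlapped, since DMSO replicate 4 was at 88.7 TPM and EB replicate 2 at 106 TPM, and the call was lost without any of DMSO replicates 1 (-0.67), 2 (-0.70) and 3 (-0.57) or EB replicates 1 (-0.60), 3 (-0.75) and 4 (-0.72), at limma adjusted p of 0.0686 to 0.101. It was also lost with no filter (-0.72) and with the length and GC trend removed (-0.47, limma adjusted p = 0.0686). EIF4H, a related cofactor, averaged 417 ± 109 and 439 ± 72.8 TPM and was not called. EIF4ENIF1, which shuttles eIF4E into the nucleus, had a log2 fold change of -0.37 (limma adjusted p = 0.0583), and EIF4E2, a cap binder linked to repression, had 0.13.

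The inhibitors of eIF4E differed among themselves. EIF4EBP1 was at 263, 254, 252 and 167 TPM with DMSO and at 631, 601, 653 and 627 TPM with EB. The EB libraries were close together and each was far above the highest DMSO library. EIF4EBP1 was 2.72-fold higher (log2 fold change 1.44, SE 0.16, limma adjusted p = 0.000251), the largest rise among the factors, and moved from rank 13 by mean TPM with DMSO to rank 2 with EB. EIF4EBP2 was at 31.7, 32.0, 37.3 and 25.1 TPM with DMSO and at 24.2, 28.1, 24.7 and 24.5 TPM with EB. The groups overlapped through DMSO replicate 4, and the log2 fold change of -0.29 was not called (95% interval -0.61 to 0.02, limma adjusted p = 0.121). EIF4EBP2 was called lower without DMSO replicate 4 (-0.40, limma adjusted p = 0.0138) and with mitochondrial genes removed (-0.475). With the length and GC trend removed its sign turned (0.20). EIF4EBP3 (chr5:140547662-140549576) was at 43.7, 33.1, 42.7 and 19.1 TPM with DMSO and at 75.4, 48.6, 56.4 and 55.2 TPM with EB. These groups did not overlap, with a log2 fold change of 0.80 (SE 0.25, limma adjusted p = 0.0310). The call of EIF4EBP3 was lost without DMSO replicate 2 (0.80) or without EB replicate 1 (0.67), 3 (0.81) or 4 (0.82), with no filter (0.80), and with the length and GC trend removed (0.44, limma adjusted p = 0.0614). The gene lies within the readthrough gene ANKHD1-EIF4EBP3, so that its reads are not certain to be its own. In this group 0 factors were lower with limma, also at an unadjusted p under 0.05, where 25.1% and 30.5% of all genes were lower.

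Ratios of 2 factors within a library do not depend on a scale factor common to the library. They still carry any trend with transcript length or GC. With that trend removed, the log2 fold change was 0.20 for EIF5A and 0.35 for EIF5A2, so that the direction of this pair turned. It was 1.14 for EIF4EBP1 and 0.20 for EIF4EBP2. In each of the pairs given here other than EIF5A and EIF5A2, the numerator had the higher value. The ratios below are from the values as deposited. EIF4A1 over EIF4A2 was 2.07, 1.63, 1.16 and 2.28 with DMSO and 6.21, 5.88, 7.28 and 6.09 with EB, so that the mean ratio went from 1.79 ± 0.49 (SD, n = 4) to 6.36 ± 0.62. EIF4EBP1 over EIF4EBP2 was 7.42 ± 0.83 with DMSO and 24.9 ± 2.35 with EB, and EIF4G1 over EIF4G3 was 10.4 ± 1.41 and 24.4 ± 2.54. In these 3 pairs the libraries of the groups were well apart. EIF4EBP1 over EIF4E, the inhibitor against its target, was 22.9 ± 5.61 with DMSO and 98.8 ± 31.2 with EB, with a wide spread from 57.8 in EB replicate 2 to 133 in EB replicate 4. EIF5A over EIF5A2 was 127 ± 19.6 and 177 ± 18.6, with the highest DMSO library and the lowest EB library both at 151. EIF1 over EIF1B was 5.46 ± 0.79 and 6.92 ± 0.97, and its groups overlapped. No test was made of these ratios, because the genes were chosen with their direction known.

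**Figure D3:**
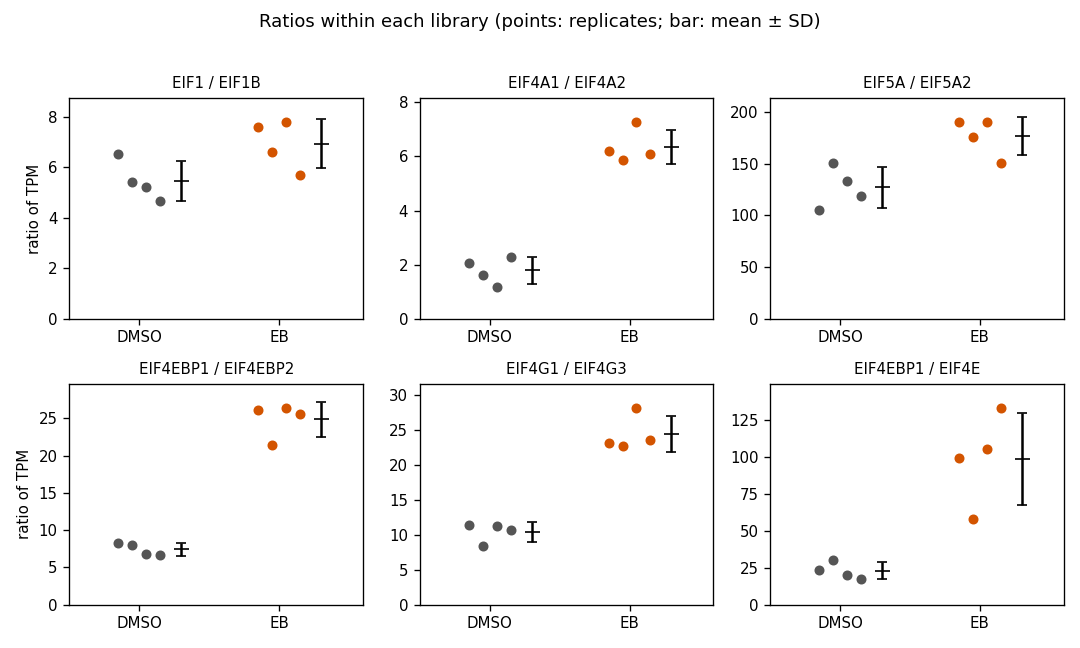
Ratio of the TPM of 2 factors within each library (points) with the mean and SD (bars) for DMSO and EB, each panel with its own axis from 0. EIF4A1 over EIF4A2 lies at 1.16 to 2.28 with DMSO and at 5.88 to 7.28 with EB, and EIF1 over EIF1B overlaps between the groups.

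Summed over the 48 factors, the TPM were 7987, 7529, 7731 and 6180 with DMSO and 9106, 9081, 8958 and 8200 with EB. Rescaled so that nuclear genes alone made up each library's total, they were 9545 to 10130 with DMSO and 10200 to 10640 with EB, a much smaller gap than before the mitochondrial genes were set aside. By complex, the 4E-binding proteins summed to 300 ± 60.0 TPM (SD, n = 4) with DMSO and 712 ± 26.1 TPM with EB, whereas the eIF4 group summed to 2115 ± 338 and 2148 ± 259 TPM. The eIF3 genes made up the largest share, at 3081 ± 240 and 3557 ± 65.1 TPM. No test was made on these sums.

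Fold changes across the transcriptome went with transcript length, and the factors were no exception. Over 11685 nuclear genes tested, Spearman's rho between the length of the annotated transcript and the log2 fold change was -0.48, and over the 48 factors it was -0.43. These are descriptions across genes, which share libraries and are not independent replicates. Of 14 factors with a transcript under 2000 nucleotides, 8 were higher and 1 was lower, compared with 34.0% and 9.24% of all genes of that length. Among 22 factors of 2000 to 4000 nucleotides the counts were 4 and 1, where 13.2% of all genes of that length were higher and 19.7% lower. Among 12 longer ones they were 2 and 2, where 4.53% of all genes that long were higher and 41.1% lower. With that trend, and the trend with GC content, taken out of each library, rho over the factors was 0.10, and the counts were 22 higher and 4 lower against 23.9% and 21.8% of all genes. The 4 lower were EIF4A2, EIF4G3, EIF4E and EIF2B4. The factors' median was then 0.19 above that of all genes, which was 0.01. With quantile normalization, the other setting that narrowed this distance most, the factors' median was 0.08 and that of all genes 0.02, a distance of 0.065. With the length and GC trend removed, EIF4EBP1 (1.14), EIF5 (1.22), EIF4A1 (0.64), EIF4A2 (-1.19) and EIF4G3 (-0.89) kept their direction and call. So did EIF1, EIF2S1, EIF2S2, EIF2B1, EIF2B3, EIF3J, EIF5A and EIF6, whereas EIF3A, EIF3G, EIF3K, EIF4B and EIF4EBP3 lost their call. The part of transcript length in these calls was not tested further.

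**Figure D4:**
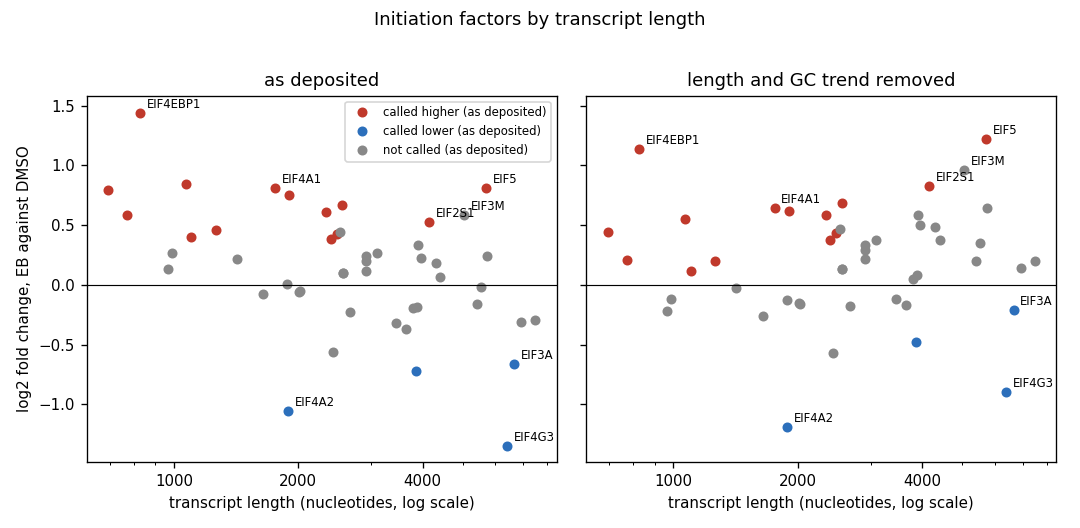
Log2 fold change of the 48 factors with EB against DMSO (vertical axis) by transcript length in nucleotides (log scale), with the values as deposited (left) and after each library's trend with length and GC was taken out (right). Colours give the call with the values as deposited, and Spearman's rho was -0.43 on the left and 0.10 on the right.

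Genes that act beside these factors were looked at with a list of 53 further translation genes, of which all 53 were tested. Of these, 7 were higher and 16 lower with EB (13.2% and 30.2%, near the 15.2% and 25.1% of all genes), and 30 were not called, with a median log2 fold change of -0.15 compared with -0.11 for all genes tested. The 16 became 9 without DMSO replicate 3 or EB replicate 3, and 10 without DMSO replicate 1, EB replicate 1 or EB replicate 4. They became 9 with the length and GC trend removed, where 21.8% of all genes were lower, and 27 with mitochondrial genes removed, where 41.4% were. Among the 4 eIF2 kinases 0 were higher and 2 lower with limma. At an unadjusted p under 0.05 the counts were 0 and 3, where 19.4% of all genes were higher and 30.5% lower. EIF2AK2 (PKR, activated by double-stranded RNA) averaged 21.4 ± 1.96 TPM (SD, n = 4) with DMSO and 11.8 ± 3.07 TPM with EB (log2 fold change -0.83, limma adjusted p = 0.00484), and its call was lost with the length and GC trend removed (-0.35). EIF2AK4 (GCN2, activated by uncharged tRNA) had -0.78 (limma adjusted p = 0.00510). On the phosphatase side PPP1R15A (GADD34), which directs the phosphatase to eIF2, was higher, with 36.8 ± 6.51 TPM for DMSO and 61.7 ± 0.91 TPM for EB (log2 fold change 0.75, limma adjusted p = 0.00378). PPP1R15B, its constitutive counterpart, was not called at -0.10. EIF2AK4 and PPP1R15A were chosen for mention after their values were seen.

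In the list for initiation and reinitiation 7 of 15 genes were lower and 1 was higher. Of all genes tested 25.1% were lower and 15.2% higher (30.5% and 19.4% at an unadjusted limma p under 0.05), which holds for the lists below too. The median log2 fold change of this list was -0.39, and -0.07 with the length and GC trend removed, where LARP1 and PAIP1 lost their lower calls. Over the 17 refits ABCF1 lost its lower call in 7, and LARP1, MKNK1 and PAIP1 lost theirs in 8 each. DDX3X, a helicase that aids mRNAs with structured leaders, was at 102, 65.9, 119 and 37.3 TPM with DMSO and at 25.4, 25.4, 17.3 and 11.3 TPM with EB. The DMSO libraries varied widely and the EB libraries were all below them (log2 fold change -1.91, SE 0.37, limma adjusted p = 0.00346). PABPC1, which binds the poly(A) tail and joins it to eIF4G, was at 858, 1092, 1050 and 927 TPM with DMSO and at 520, 579, 440 and 499 TPM with EB. Its log2 fold change was -0.95 (limma adjusted p = 0.000870), with no overlap between the groups. In the mTOR list 4 of 12 genes, MTOR, RPS6KB1, TSC1 and TSC2, were lower, and 1, SESN2, was higher, from 20.6 ± 4.67 TPM (SD, n = 4) to 43.3 ± 6.58 TPM (log2 fold change 1.06, limma adjusted p = 0.00270). The 4 lower calls of the mTOR list were all lost with the length and GC trend removed, at -0.25 for MTOR, -0.15 for RPS6KB1, -0.14 for TSC1 and -0.29 for TSC2 (limma adjusted p 0.13 to 0.36), whereas SESN2 was still called (1.21). MTOR lost its call in 9 of the 17 refits in all, among them without any of DMSO replicates 1 (-0.77), 2 (-0.77) and 3 (-0.75) or EB replicates 1 (-0.92), 3 (-0.86) and 4 (-0.52). SESN2 and the TSC proteins restrain mTOR complex 1, whereas RPS6KB1 is a kinase that it activates. In the elongation and termination list 3 of 11 genes were higher and 1 lower. Of the higher ones, GSPT1 lost its call in 8 of the 17 refits. EEF1B2 lost its call with the length and GC trend removed (0.15, limma adjusted p = 0.105). EEF1E1, a scaffold of the aminoacyl-tRNA synthetase complex, went from a mean of 19.9 to a mean of 43.1 TPM (log2 fold change 1.07, limma adjusted p = 0.000318), and EEF2K, the kinase that inhibits elongation factor 2, from 9.75 ± 1.42 to 5.05 ± 0.64 TPM (log2 fold change -0.83, limma adjusted p = 0.00207). Among 6 mitochondrial translation factors 0 were higher, also at an unadjusted limma p under 0.05, and 1, GFM1, was lower (log2 fold change -0.81).

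**Figure D5:**
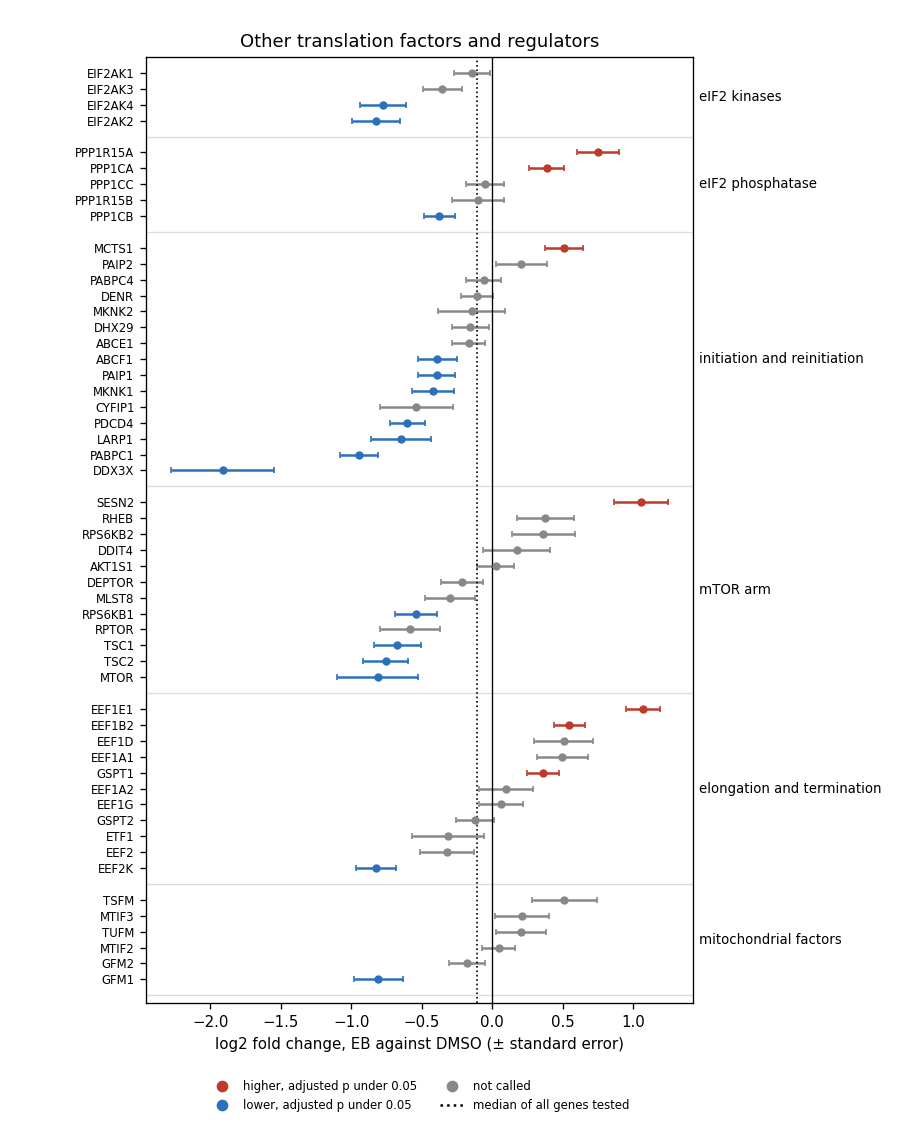
Log2 fold change with EB against DMSO (points) and its standard error (bars) for 53 other translation genes by list, from limma on log2(TPM + 1). Red points (7) and blue points (16) passed an adjusted p of 0.05, the dotted line is the median of all genes tested (-0.11), and DDX3X lies lowest at -1.91.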

How the data were processed

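The authors deposited TPM of 20263 genes in 8 libraries as 1 table. They give CLC Genomics Workbench for trimming, mapping and normalization, list other aligners beside it, and name both a mouse and a human assembly (hg38). The identifiers are human. Columns headed C were read as control (DMSO) and those headed H as EB, the other group of the series. No source used here explains the letter H, and the direction of every difference rests on this reading. Depth, and so the precision of a single value, is unknown from TPM, and whether the library keeps strand is not given in the sources used here. Of the 48 factors, 29 overlap a gene on the other strand, whose reads could then not be told apart.

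Symbols (20148 genes matched), positions and transcript lengths came from GENCODE release 44, and promoters from RefSeq. Values were log2(TPM + 1), a scale on which the change of low genes is understated. The groups were compared in R 4.3.3 with limma 3.58.1 (eBayes without trend), two-sided, with Benjamini-Hochberg adjustment over 11725 genes. Ranges, ratios and sums were computed in Python 3.11.15. Steps were tested on simulated data. Alternatives were median-ratio and quantile normalization, mitochondrial genes removed, a loess trend on length and GC content removed, no filter or one at 5 TPM, a pseudocount of 0.1, a trend in eBayes, a replicate block, each library left out, and other call thresholds. The limma p-values set the difference between EB and DMSO against the spread between these libraries within the groups.

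Named were the 3 largest called changes per complex (the largest where none was called), a short list of core factors and the pairs used for ratios, 22 in all, and 6 of the other translation genes. Other genes are given by counts, ranges and single values. The factors, the lists and these rules were chosen with earlier results of these data known.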

Additional observations from a re-analysis of the deposited data

Results flagged for a closer look

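In each group of 4 libraries of a named gene or ratio, a library was set apart where its gap to the nearest other, as a share of the group's whole range, exceeded Dixon's 95% limit. This held in 7 of 68 groups, and chance gives about 1 in 20. DMSO replicate 4, the library with the highest mitochondrial share, was low for EIF4A2 (154 TPM, the others 218 to 220), EIF4EBP1 (167 TPM, the others 252 to 263) and SESN2 (13.6 TPM, the others 22.5 to 23.3). EB replicate 4 was low for EIF4A1, at 498 TPM with the others at 640 to 659 TPM. EB replicate 2 was high for EIF4EBP2, at 28.1 TPM with the others at 24.2 to 24.7 TPM, and therefore low for the ratio of EIF4EBP1 to EIF4EBP2, at 21.4 with the others at 25.6 to 26.4. EB replicate 3 was high for the ratio of EIF4G1 to EIF4G3, at 28.1 with the others at 22.7 to 23.6. The calls of EIF4A1, EIF4A2 and EIF4EBP1 held with each of the 8 libraries left out in turn.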

How the results depend on the processing

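The counts of 14 higher and 4 lower factors became 24 and 4 with median-ratio scaling (26.8% of all genes higher and 25.6% lower), 22 and 4 with the length and GC trend removed (23.9% and 21.8%), 15 and 7 with quantile normalization (23.8% and 23.5%), 11 and 10 with mitochondrial genes removed (12.1% and 41.4%), and 0 and 0 with the study's thresholds. With a library left out they ranged from 9 to 14 and from 3 to 6. Of the 53 other translation genes, 7 higher and 16 lower, 13 were higher with median-ratio scaling and 0 with the study's thresholds, and 9 were lower with the length and GC trend removed, 27 with mitochondrial genes removed and 1 with the study's thresholds, or 9 to 21 with a library left out (9 without DMSO replicate 3 or EB replicate 3, 10 without DMSO replicate 1, EB replicate 1 or EB replicate 4). Of the alternatives for single named genes, 435 left the call and the direction as they were, 23 lost a call, 9 gained one and 8 turned the sign of a value that was not called. The signs that turned were those of EIF1B (-0.12), EIF4G1 (0.20), EIF4G2 (0.049), EIF4EBP2 (0.20) and EIF5A2 (0.35) with the length and GC trend removed, and of EIF5A2 with median-ratio scaling (0.089) and quantile normalization (0.30). With the length and GC trend removed EIF5A2 was also called higher. With a library left out the value of EIF5A2 ran from -0.10 without DMSO replicate 4 to 0.093 without DMSO replicate 1. The causes were not tested. With the replicate number as a replicate block, 16 factors were higher and 6 lower, against 19.0% and 30.1% of all genes. The numbers were not taken as pairs, since the correlation of same-numbered libraries' deviations from their group means was 0.18, 0.05, -0.09 and 0.28 for replicates 1 to 4, and EB replicates 2 and 3 correlated best with DMSO libraries of another number. With 4 libraries a group and TPM without read counts, small changes and those of scarce genes such as EIF4E, EIF5A2 and EIF5AL1 are the least certain.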
